A study of Rattus norvegicus with 78 samples.

Results

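The genes described here encode the protein subunits of oxidative phosphorylation that are made in the nucleus, together with a few assembly and regulatory factors that share their gene symbols. They were chosen as probe sets with a single platform gene symbol starting with Nduf, Sdh, Uqcr, Cox4, Cox5, Cox6, Cox7, Cox8 or Atp5. The rule itself uses names only, though it was set with earlier results of these data known. A probe set was kept if at least 9 arrays put it higher than the 40th percentile of their own signals. The names gave 94 probe sets of 88 genes, of which 85 probe sets of 83 genes were kept, out of 7489 tested genes. Each gene was represented by its brightest kept probe set. The 83 genes comprised 34 subunits of complex I, 4 of complex II, 7 of complex III, 11 of complex IV and 15 of complex V, and 12 others. The 12 others were the complex I assembly factors Ndufaf3, Ndufaf4, Ndufaf5, Ndufaf7 and Ndufaf8, the complex II assembly factors Sdhaf1, Sdhaf2, Sdhaf3 and Sdhaf4, the supercomplex factor Cox7a2l, the ATP synthase inhibitor Atp5if1, and Cox6c-ps1, whose symbol is that of a pseudogene. Ndufa4, which was first described as a complex I subunit, was counted with complex IV.

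Oxidative phosphorylation takes place in the inner mitochondrial membrane. Complex I accepts electrons from NADH and complex II, which is also the succinate dehydrogenase of the citric acid cycle, accepts them from succinate. Ubiquinone carries these electrons to complex III and cytochrome c carries them on to complex IV, which reduces oxygen to water. Complexes I, III and IV pump protons as they do so, and complex V uses the returning protons to make ATP. Most subunits of the system are nuclear genes, while some subunits of complexes I, III, IV and V are encoded by mitochondrial DNA and are not among the genes here. Neurons depend on this pathway for the ATP that restores ion gradients after electrical activity.

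The tissue was dorsal hippocampus of the left side from 78 F344 males, each animal hybridized to its own Affymetrix RAE230A array, with linear signal intensities that the authors had scaled to a common mean. Aged rats were 24 to 26 and young rats 4 to 6 months old. Untrained animals stayed in the home cage (NT-A, aged, n = 10, and NT-Y, young, n = 10). Trained animals learned the Morris water maze, a swimming task with a hidden platform, and were sampled on day 5, the last training day (5T-AI, n = 10, 5T-AU, n = 10, and 5T-Y, n = 10), or 21 days after training (21PT-AI, n = 9, 21PT-AU, n = 10, and 21PT-Y, n = 9). AI and AU are aged rats that the authors classed as impaired or unimpaired from their own maze performance, and Y are young rats. The classes therefore describe behaviour, not a treatment. "5T-aged" and "21PT-aged" below stand for the average of the AI and AU group means at that time.

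Of the 83 genes, 80 were above the 40th percentile in every one of the 78 arrays. The dimmest kept gene was Cox7a1, the heart and skeletal muscle form of a complex IV subunit, which passed in 15 arrays. Cox6c-ps1 passed in 58 arrays. Below the limit lay Cox4i2 and Cox8b, tissue isoforms of complex IV subunits, which passed in 3 and 0 arrays. Of the second probe sets of single genes, that of Atp5me passed in 12 arrays and was kept, those of Atp5if1 passed in 0 and 2 and were not, and that of Sdhd was kept. The other genes not kept were Cox6a2, Cox6b2 and Ndufa4l2. A further 7 probe sets carried several symbols that include one of these prefixes and were not assigned to a gene. Cox5a is among their symbols. Among the subunits with a kept probe set of their own, Cox5a was measured by a dim one, with a mean signal of 269. Mean signals ran from 136 to 7784 over the 83 genes, and since probe sets differ in response these levels are not compared between genes.

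Promoter windows of the 83 genes hold matches of motifs known from respiratory genes. Windows of 250 bases before the start site, from RefSeq (assembly GRCr8), were found for 76 of the 83 genes and searched on both strands. NRF-1 and GABP (NRF-2, of the Ets family) are known activators of nuclear respiratory genes. The Ets motif CCGGAAG was present in 23 of 76 windows (30.3%), against 16.0% of the windows of tested genes and 7.74% of all windows. The core of the NRF-1 motif, TGCGCA, was present in 20 (26.3%), against 13.5% and 6.57%, whereas the full NRF-1 motif was present in 2 (2.63%), against 2.9% and 1.18%. The Sp1 motif GGGCGG was present in 29 (38.2%), against 62.3% and 32.4%. The core lies inside the full NRF-1 motif, and a match is only one of letters. The windows shown here belong to Ndufb5, which comes nearest to the threshold below, and to 3 of the other genes plotted by group. Each of these 3 holds a match, so the windows shown do not stand for the shares above. Capitals mark matches of the Ets motif or the NRF-1 core on either strand.
Ndufb5 (chr2:117447355-117447604, plus strand): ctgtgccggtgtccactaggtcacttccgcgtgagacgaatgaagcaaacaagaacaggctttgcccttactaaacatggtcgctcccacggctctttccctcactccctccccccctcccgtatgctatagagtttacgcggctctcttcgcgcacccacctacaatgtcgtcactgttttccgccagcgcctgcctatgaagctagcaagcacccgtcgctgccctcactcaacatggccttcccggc
Sdha (chr1:30764303-30764552, plus strand): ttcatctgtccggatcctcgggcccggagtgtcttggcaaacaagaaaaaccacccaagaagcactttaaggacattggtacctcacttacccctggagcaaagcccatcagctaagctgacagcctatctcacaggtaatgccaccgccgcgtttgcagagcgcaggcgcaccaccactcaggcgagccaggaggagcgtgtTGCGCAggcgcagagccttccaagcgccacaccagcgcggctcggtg
Uqcrc1 (chr8:118467973-118468222, plus strand): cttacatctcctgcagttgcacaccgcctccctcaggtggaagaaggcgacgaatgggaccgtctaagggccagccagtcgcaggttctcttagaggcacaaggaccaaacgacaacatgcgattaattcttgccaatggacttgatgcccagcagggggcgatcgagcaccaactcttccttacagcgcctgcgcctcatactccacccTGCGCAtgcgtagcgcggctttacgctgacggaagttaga
Cox8a (chr1:213833624-213833873, minus strand): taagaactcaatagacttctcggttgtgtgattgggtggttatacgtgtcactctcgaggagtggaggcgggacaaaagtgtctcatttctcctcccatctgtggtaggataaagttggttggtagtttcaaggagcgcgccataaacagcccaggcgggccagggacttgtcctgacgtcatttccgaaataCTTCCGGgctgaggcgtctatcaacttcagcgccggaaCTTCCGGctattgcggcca
The window length and the forms of the NRF-1 motif were chosen after match counts had been seen. A longer window, a looser form of the full NRF-1 motif and a YY1 motif were also searched and are not reported here. The share of windows with an NRF-1 match depends on the form searched, so these shares are a description of the windows and carry no test. The window of Sdha holds 1 match of the NRF-1 core, that of Uqcrc1 1 match of it and that of Cox8a 2 Ets matches, while the letters of these motifs are not in the window of Ndufb5.

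Arrays were judged against several technical and cellular measures. One array, 5T-AI replicate 4, had a mean correlation of 0.906 with the other arrays, against a median of 0.971. Its summed signal over 11 neuronal markers was 31670, against at least 39280 in every other array, and its summed signal over 8 microglial markers was 24917, against at most 9648 in every other array. No group had more than 1 array on any of the 11 scan days, and each group had 3 or 4 arrays in each of the 3 chip lots. Of 4 fluidics modules, however, module 1 processed all 10 NT-Y arrays and none of the NT-A arrays, so that module and age cannot be told apart among untrained rats. Module followed the groups elsewhere too. Of the 10 5T-Y arrays 9 were in module 2, against 2 of 20 of 5T-aged rats, and of the 9 21PT-Y arrays 8 were in module 3, against 2 of 19 of 21PT-aged rats. No 5T-Y or 21PT-Y array was in module 1, so that module and training cannot be told apart in young rats. Values fitted with the module as a term draw on the other groups for the module's own effect and are given beside several of the results that they moved. None of the markers of neurons, astrocytes, oligodendrocytes, microglia, endothelium, choroid plexus or blood that were measured was at 0 in any array.

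The levels of complexes I to V lay close together over the 8 groups. For each array, the level of a complex was taken as the mean over its subunits of the log2 signal minus the gene's own mean over all arrays. Over the 8 groups the mean level ran from -0.03 to 0.03 for complex I, from -0.02 to 0.02 for complex II, from -0.03 to 0.03 for complex III, from -0.02 to 0.03 for complex IV and from -0.01 to 0.02 for complex V. The SD between animals of 1 group was from 0.05 to 0.09 for complex I and from 0.06 to 0.11 for complex IV. Single arrays ranged much more widely than groups: the mean level of all subunits was -0.19 in 5T-AI replicate 4, the lowest, and 0.15 in NT-A replicate 2, the highest. Complexes I to V were all below 0 in 17 of 78 arrays and all above 0 in 18, and without complex II, which has only 4 subunits, the numbers were 24 and 22. This is a description, since the complexes of an array are read from the same hybridization.

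**Figure D1:**
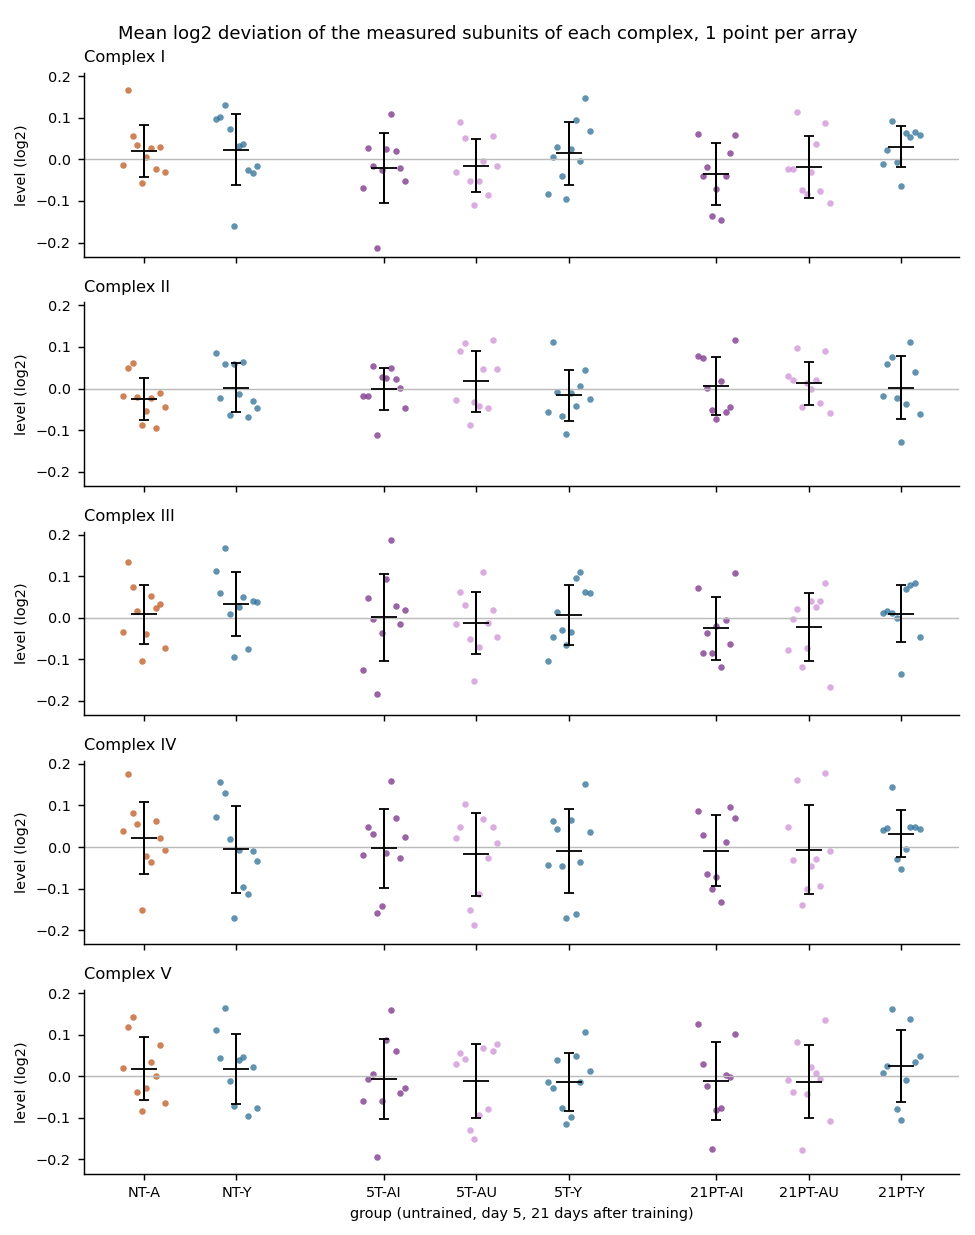
Level of complexes I to V in each array (y axis, mean log2 deviation of the measured subunits from their means over all arrays) by group (x axis, untrained, day 5 and 21 days after training). Points are animals, bars are group means with SD, and group means run from -0.03 to 0.03.

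Single genes also moved little between groups. The range between the highest and lowest of the 8 group means had a median of 0.11 on the log2 scale over the 83 genes, against 0.18 over all 10371 tested probe sets, and stayed under 0.25 in 79 of 83 genes. The widest ranges belonged to Ndufaf8 (0.29), Sdhaf3 (0.29), Cox5a (0.25) and Cox6c-ps1 (0.25), and the narrowest to Sdhc (0.04). The SD between animals within groups had a median of 0.13 for the 83 genes and 0.18 for all tested probe sets. These comparisons were not matched for signal. By complex, the median of the mean signals ran from 1969 (complex I) to 4598 (complex IV), and it was 497 in the 12 others. The median signal of an array over all probe sets but controls ran from 229 to 269. In a moderated F test over the 8 groups (limma, Benjamini-Hochberg adjustment over all tested probe sets, threshold 0.05, here and below), 0 of the 83 genes were called, against 426 of 10371 probe sets (4.11%). At an unadjusted p under 0.05 the F test also took 0 of the 83, against 1488 probe sets (14.3%). The smallest adjusted p of limma's F test among them was 0.36, for Cox8a. With scan day as a block the F test called 2 of the 83, Atp5f1b (adjusted p of limma 0.019) and Cox8a (0.041), and with chip lot as a block it called Atp5f1b (0.019). The 2 smallest in each complex were Ndufa9 (0.37) and Ndufb5 (0.45) of complex I, Sdha (0.72) and Sdhb (0.82) of complex II, Uqcr11 (0.76) and Uqcrc1 (0.85) of complex III, Cox8a and Cox5a (0.63) of complex IV, and Atp5mf (0.50) and Atp5f1a (0.58) of complex V, as adjusted p of limma.

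Signals of single genes show how closely the groups overlap. Cox8a, a small nuclear subunit of complex IV, had a lowest, median and highest signal of 6053, 7040 and 7835 in 5T-AI, of 6837, 7692 and 8908 in 5T-AU and of 6343, 7276 and 8280 in 5T-Y. On day 21 it had 7164, 7472 and 9387 in 21PT-AI, 6509, 7468 and 8288 in 21PT-AU and 6848, 7772 and 8962 in 21PT-Y. The untrained rats had 6511, 7690 and 9293 in NT-A and 6930, 7298 and 8521 in NT-Y, so that all 8 groups overlapped. Atp5f1b, the catalytic beta subunit of the F1 head of ATP synthase, had 6844, 8348 and 8960 in 21PT-aged rats and 6986, 8085 and 8559 in 21PT-Y. Its values were 6133, 7892 and 8584 in 5T-aged rats and 6513, 7338 and 8165 in 5T-Y, and 6337, 7880 and 8687 in NT-A and 6618, 7878 and 8261 in NT-Y. These ranges overlapped at each time as well.

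**Figure D2:**
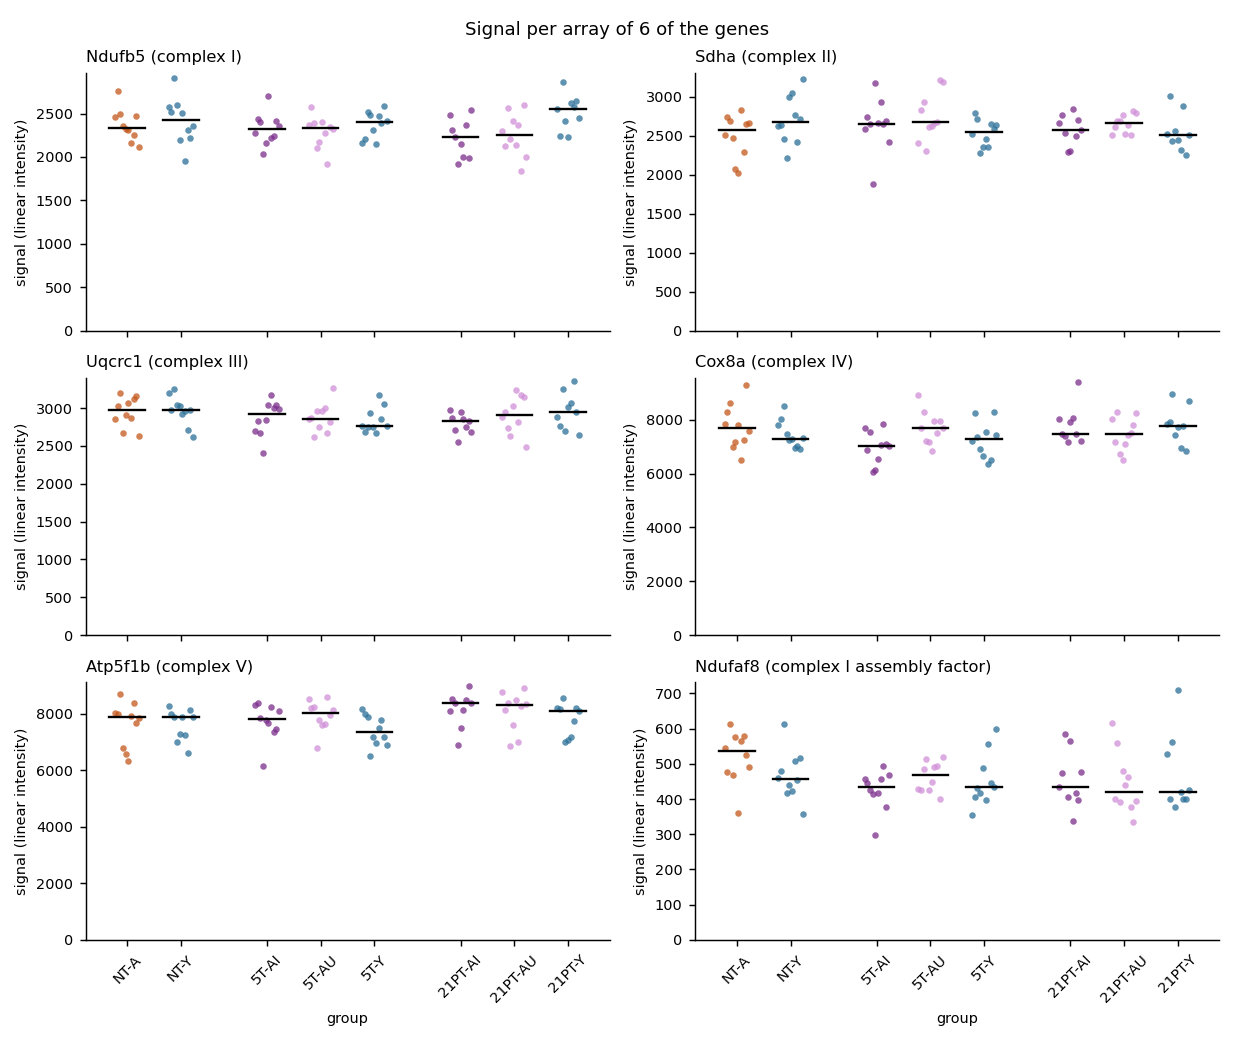
Signal per array (y axis, linear intensity from 0) of 6 of the genes by group (x axis), 1 from each complex and the assembly factor Ndufaf8. Points are animals and lines are medians, and in each panel the 8 groups overlap.

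Complex II is the smallest set and all 4 of its subunits were measured. Sdha, the flavoprotein that oxidizes succinate, had a lowest, median and highest signal of 2022, 2581 and 2828 in NT-A and of 2210, 2676 and 3236 in NT-Y, a log2 difference of -0.12 ± 0.06 (SE; adjusted p of limma 0.61). In 5T-aged rats its signals were 1878, 2666 and 3219, against 2280, 2555 and 2788 in 5T-Y, a log2 difference of 0.08 ± 0.06 (SE; adjusted p of limma 0.63). In 21PT-aged rats they were 2297, 2643 and 2851, against 2254, 2516 and 3012 in 21PT-Y, a log2 difference of 0.04 ± 0.06 (SE; adjusted p of limma 0.78). The aged and young groups overlapped at each time. Sdhb, the iron-sulfur subunit, differed between aged and young rats by -0.04, 0.05 and -0.04 on the log2 scale in untrained rats, on day 5 and on day 21. The membrane anchors differed by 0.02, 0.01 and -0.00 (Sdhc) and by 0.03, -0.04 and 0.04 (Sdhd) in the same order. A second kept probe set of Sdhd was at -0.00, 0.01 and 0.13, with an adjusted p of limma of 0.30 on day 21 and an unadjusted p of 0.050. In 21PT-AU against 21PT-Y that set was at 0.16 ± 0.07 (SE; adjusted p of limma 0.26). None of the 4 subunits was called in any of the comparisons below.

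NT-A against NT-Y compares aged with young rats that had no training, with the fluidics module differing alongside age. Of the 83 genes 0 were called by limma, against 81 of 10371 probe sets (0.781%), and 0 had an unadjusted p under 0.05, against 905 probe sets (8.73%). The median log2 difference over the 83 genes was -0.01, with 44 of 83 below 0, and over all tested probe sets it was -0.00. Values lay between -0.19, for Uqcr10, a small subunit of complex III, and 0.21, for Cox7a1. After Sdha, the smallest p values belonged to Ndufa9, an accessory subunit of complex I, at -0.08 ± 0.04 (SE), and Cox6c-ps1 at 0.17 ± 0.11 (SE). The 95% interval of the log2 difference stayed within ±0.25 in 74 of 83 genes, against 56.3% of all tested probe sets, and within ±0.5 in 82. The share of all probe sets was not matched for signal here either. With the fluidics module as a term in the fit the median over the 83 genes was -0.06.

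On day 5, 5T-aged against 5T-Y again gave 0 called genes in limma, against 259 of 10371 probe sets (2.5%). At an unadjusted p under 0.05 there were 4, each below 0, against 1268 probe sets (12.2%). The 4 were accessory subunits of complex I: Ndufb7 at -0.12 ± 0.05, Ndufb6 at -0.12 ± 0.05, Ndufb3 at -0.09 ± 0.04 and Ndufc2 at -0.10 ± 0.05 (log2 difference ± SE), with adjusted p of limma between 0.29 and 0.36. Ndufb7 had a lowest, median and highest signal of 940, 1198 and 1350 in 5T-aged rats and of 1183, 1297 and 1396 in 5T-Y. Of 20 aged animals 16 lay below the young mean, and the 2 groups overlapped. The median over the 83 genes was -0.02, against -0.01 over all tested probe sets, and -0.01 without 5T-AI replicate 4.

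At 21 days after training most of the 83 genes lay below 0, and still 0 of 83 were called in 21PT-aged against 21PT-Y, where limma called 295 of 10371 probe sets (2.84%). Of the 83 genes 70 (84.3%) had a log2 difference below 0, against 53.9% of all tested probe sets. The median was -0.05, against -0.01 over all tested probe sets, and -0.03, -0.05 and -0.05 within the 3 chip lots. With the fluidics module as a term it was -0.03, and with the Gapdh control's own 3' to 5' ratio in the fit -0.02. The lean was small for each gene: 76 of 83 intervals stayed within ±0.25 and 83 of 83 within ±0.5. The genes are read from the same arrays and tend to move together within an array. Counts of genes below 0, here and below, are therefore not counts of independent results. The mean level of all subunits was 0.03 ± 0.06 (SD, n = 9) in 21PT-Y, -0.02 ± 0.07 (SD, n = 9) in 21PT-AI and -0.01 ± 0.08 (SD, n = 10) in 21PT-AU. By complex, 30 of 34 genes of complex I, 2 of 4 of complex II, 5 of 7 of complex III, 9 of 11 of complex IV, 13 of 15 of complex V and 11 of the 12 others were below 0, with medians of -0.05, 0.02, -0.05, -0.03, -0.04 and -0.06 on the log2 scale. Within complex I the 28 accessory subunits had a median of -0.05 and the 6 core subunits, which are conserved from bacteria, -0.03. An unadjusted p under 0.05 was reached by 7 genes, each below 0, against 1737 probe sets (16.7%). They were Ndufb5, Ndufa9, Ndufa2, Ndufc2, Ndufb6 and Ndufs6 of complex I and Atp5pf of the peripheral stalk of complex V. Ndufa9 was at -0.10 ± 0.04 and Ndufa2 at -0.13 ± 0.06 (log2 difference ± SE; adjusted p of limma 0.19 and 0.23). With the actin ratio described below as a covariate they were at -0.06 and -0.05.

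**Figure D3:**
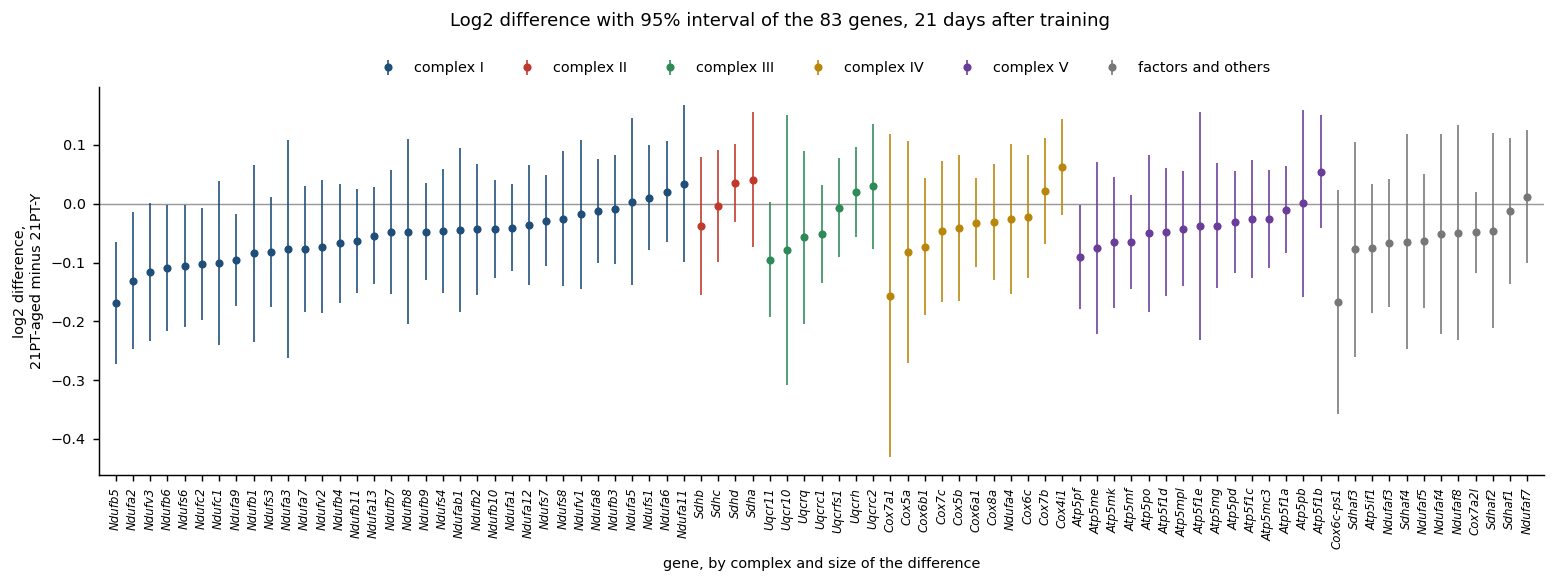
Log2 difference of each of the 83 genes (y axis, 21PT-aged minus 21PT-Y, bars are 95% intervals of the fit) by complex and size (x axis). Of the 83 points 70 lie below 0, and the lowest complex I point is Ndufb5 at -0.17.

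Ndufb5, an accessory subunit in the membrane arm of complex I, came closest to the threshold. Its lowest, median and highest signal was 1921, 2234 and 2536 in 21PT-AI, 1841, 2256 and 2603 in 21PT-AU and 2230, 2558 and 2861 in 21PT-Y. Of the 19 aged animals 16 lay below the young mean, and the ranges overlapped. The log2 difference was -0.17 ± 0.05 (SE; 95% interval -0.27 to -0.07; adjusted p of limma 0.058), a fold of 0.89. Within the 3 chip lots it was -0.12, -0.15 and -0.21, and aged arrays averaged below the young array on 8 of 9 scan days. With scan day as a block the adjusted p of limma was 0.045, with chip lot as a block it was 0.032, and without 5T-AI replicate 4, an array of another time point that enters through the shared spread, it was 0.040. With the fluidics module as a term it was 0.53, and with the 3' over 5' signal ratio of the actin control as a covariate 0.41. That ratio, a measure of RNA integrity and labelling, averaged log2 0.76 ± 0.28 (SD, n = 9) in 21PT-AI, 0.60 ± 0.23 (SD, n = 10) in 21PT-AU and 0.99 ± 0.38 (SD, n = 9) in 21PT-Y. With it as a covariate the median over the 83 genes was -0.03.

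Cell markers also moved with age beside these values. Of 8 microglial markers limma called 3 higher in NT-A than NT-Y, 5 higher in 5T-aged than 5T-Y and 4 higher in 21PT-aged than 21PT-Y, with median log2 differences of 0.38, 0.49 and 0.64 over the list. The summed microglial signal ranged from 7320 to 9329 in NT-A, against 5171 to 7213 in NT-Y. It ranged from 6743 to 24917 in 5T-AI and from 6931 to 9648 in 5T-AU, against 4898 to 6880 in 5T-Y. On day 21 it ranged from 7502 to 9427 in 21PT-AI and from 7530 to 9051 in 21PT-AU, against 4769 to 6328 in 21PT-Y. Of 4 endothelial markers limma called 4 higher in 21PT-aged than 21PT-Y, and among the 3 comparisons its endothelial calls were confined to day 21. The summed endothelial signal had a median of 1479 in 21PT-Y, 1703 in NT-Y and 1795 in 5T-Y. In aged rats it was 1757 in NT-A, 1934 in 5T-AI, 1938.5 in 5T-AU, 2087 in 21PT-AI and 1896 in 21PT-AU. Of 7 astrocyte markers limma called Gfap, an intermediate filament protein, higher in aged rats at each time, by 0.25, 0.28 and 0.25 on the log2 scale in untrained rats, on day 5 and on day 21, and S100b on day 5 by 0.16. Of 3 blood markers limma called Hbb, a beta globin, higher in aged rats at each time, by 0.90, 0.89 and 0.96, and Alas2, a heme synthesis enzyme of red cell precursors, on day 21 by 0.94. The summed blood signal ranged from 1826 to 10487 in 21PT-AI and from 2504 to 14361 in 21PT-AU, against 1938 to 2977 in 21PT-Y. The summed astrocyte signal ranged from 33584 to 39364 in 21PT-AI and from 29839 to 37079 in 21PT-AU, against 29578 to 36253 in 21PT-Y. Of 6 oligodendrocyte and 3 choroid plexus markers limma called 0 in the 3 comparisons, and an unadjusted p under 0.05 was reached by 1, 0 and 1 of the first and by 1, 0 and 0 of the second. Of 11 neuronal markers limma called 0 in these 3 comparisons, while 2, 4 and 3 had an unadjusted p under 0.05, each below 0, and the day 21 median was -0.04. Of all tested probe sets 8.73%, 12.2% and 16.7% had such a p in the 3 comparisons, and limma called 0.781%, 2.5% and 2.84%. The summed neuronal signal ranged from 41587 to 46801 in 21PT-AI and from 40792 to 46511 in 21PT-AU, against 43822 to 47570 in 21PT-Y. The part of these markers in the lean of the 83 genes was not tested, and in bulk tissue fewer cells of a type and less RNA per cell cannot be told apart.

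The 3 comparisons of aged with young rats share no array. Of the 83 genes 26 (31.3%) were below 0 in each of the 3 and 1 was above 0 in each, against 23.2% and 18.5% of all tested probe sets. Complex I had 12 of its 34 genes below 0 in each, complex V 5 of 15 and complex II 0 of 4. Whether the aged minus young difference itself changed with training was tested directly. The difference on day 5 minus that in untrained rats, and the difference on day 21 minus that in untrained rats, each gave 0 called genes in limma, against 0 of 10371 probe sets (0%) each. At an unadjusted p under 0.05 these took 4 and 2 of the 83 genes, against 386 probe sets (3.72%) and 402 probe sets (3.88%). The smallest p belonged to Ndufb6 on day 5, at -0.20 ± 0.08, and to Cox6c-ps1 on day 21, at -0.34 ± 0.14 (log2 difference ± SE). Ndufb6, an accessory subunit in the membrane arm of complex I, was at -0.19 ± 0.08 on day 21, and Sdha was at 0.20 ± 0.08 on day 5 and 0.16 ± 0.09 on day 21. Cox6c-ps1 was at -0.32 ± 0.14 on day 5 and Ndufb5 at -0.15 ± 0.08 on day 21. Adjusted p values of limma were above 0.99 for each of these. With the fluidics module as a term the day 21 values were -0.10 for Ndufb6 and -0.07 for Ndufb5, and the median over the 83 genes was 0.03, against -0.04 without that term.

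Maze impairment was compared among aged rats, AI against AU at each time. Fluidics module followed these classes too. On day 5 module 1 held 7 of 10 5T-AI arrays and 1 of 10 5T-AU arrays, and module 3 held 0 and 7. On day 21 module 2 held 7 of 9 21PT-AI arrays and 0 of 10 21PT-AU arrays, and module 4 held 0 and 7. Module and impairment therefore cannot be fully told apart. On day 5 limma called 0 of the 83 genes and 0 of 10371 probe sets (0%), and an unadjusted p under 0.05 was reached by 2 of the 83, against 475 probe sets (4.58%). The 2 were complex IV subunits with opposite signs. Cox8a, whose signals are given above, differed by -0.15 ± 0.06 (SE; adjusted p of limma 0.98), with 9 of 10 impaired animals below the unimpaired mean and values of -0.17, -0.14 and -0.13 within the 3 chip lots. Cox5a had a lowest, median and highest signal of 234, 279 and 415 in 5T-AI and of 220, 250 and 289 in 5T-AU, a log2 difference of 0.22 ± 0.10 (SE; adjusted p of limma 0.98). Both genes overlapped between the groups. The value of Cox5a rests on its dim probe set. A single probe set with several symbols also lists Cox5a, and its own value is not given here. The 7 such sets, the others of which list other genes, lay between -0.03 and 0.12 in this comparison. Ndufb1, a small accessory subunit of complex I, followed at -0.16 ± 0.08 (SE), and was at -0.05 with the fluidics module as a term. On day 21 limma called 0 of the 83 and 0 of 10371 probe sets (0%), and 0 of the 83 had an unadjusted p under 0.05, against 477 probe sets (4.6%). Cox5a now differed by -0.19 ± 0.11 (SE), with signals of 178, 226 and 322 in 21PT-AI and 237, 279 and 303 in 21PT-AU, but by only -0.01 with the fluidics module as a term. The 7 probe sets with several symbols lay between -0.07 and 0.11. Sdhaf4, a complex II assembly factor, differed by -0.17 ± 0.10 (SE), and Uqcrfs1, the Rieske iron-sulfur protein of complex III, by -0.08 ± 0.05 (SE).

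The median log2 difference of AI against AU over the 83 genes was 0.00 on day 5 and -0.01 on day 21, with 41 and 47 of 83 below 0. The intervals stayed within ±0.25 in 73 of 83 genes at each time. Without 5T-AI replicate 4 the day 5 median was 0.02. The impairment difference on day 21 minus that on day 5 called 0 genes in limma, against 0 of 10371 probe sets (0%), and took 3 at an unadjusted p under 0.05, against 347 probe sets (3.35%). These were Cox5a at -0.40 ± 0.15, Cox8a at 0.20 ± 0.08 and Cox7a2l, a factor that joins complexes III and IV, at 0.12 ± 0.05 (log2 difference ± SE). With the fluidics module as a term the values were -0.18 for Cox5a, 0.11 for Cox8a and -0.00037 for Cox7a2l. Without that term, the 7 probe sets with several symbols, including the set that lists Cox5a, ran from -0.18 to 0.07 in this difference.

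Training was compared in each age. In young rats limma called 0 of the 83 genes in 5T-Y against NT-Y, beside 7 of 10371 probe sets (0.0675%), and 0 in 21PT-Y against NT-Y, beside 0 probe sets (0%). At an unadjusted p under 0.05 there were 0 and 0 of the 83, against 328 probe sets (3.16%) and 253 probe sets (2.44%). The median over the 83 genes was -0.01 on day 5 and 0.01 on day 21, and with the fluidics module as a term it was -0.06 and -0.05. Ndufs6, an accessory subunit of complex I, had the smallest p on day 5, at -0.11 ± 0.06 (SE), with 10 of 10 trained animals below the untrained mean, and was at -0.22 with the fluidics module as a term. It was followed by Atp5mf, a membrane subunit of complex V, at -0.08 ± 0.04 (SE) and Ndufb6 at 0.09 ± 0.06 (SE). On day 21 the first 3 were Cox6c-ps1 at 0.17 ± 0.11, Ndufa6, an accessory subunit of complex I, at -0.08 ± 0.05 and Cox5b, a nuclear subunit of complex IV, at 0.11 ± 0.07 (log2 difference ± SE). With the fluidics module as a term Ndufa6 was at -0.17 and Cox5b at 0.00498.

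In aged rats, 5T-aged against NT-A gave 0 called genes in limma, beside 16 of 10371 probe sets (0.154%), and 21PT-aged against NT-A gave 0, beside 0 probe sets (0%). Both comparisons share the NT-A arrays. Fluidics module 4 held 8 of the 10 NT-A arrays, against 3 of 10 in 5T-AI and 0 of 10 in 5T-AU. In 21PT-AI it held 0 of 9 and in 21PT-AU 7 of 10. Module and training therefore cannot be fully told apart in aged rats. At an unadjusted p under 0.05 the first took 8 of the 83 genes, each below 0, against 950 probe sets (9.16%). The second took 6, of which 5 were below 0, against 575 probe sets (5.54%). The median was -0.03 on day 5, with 60 of 83 below 0, and -0.04 on day 21, with 67 of 83 below 0. It was -0.01 on day 5 and -0.02 on day 21 with the actin ratio as a covariate, and likewise -0.01 and -0.02 with the fluidics module as a term. Within the 3 chip lots the day 5 median was -0.05, -0.07 and 0.02 and the day 21 median -0.05, -0.06 and -0.01.

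The genes with the smallest p in these comparisons were Atp5f1c, Ndufaf8 and Atp5mf on day 5 and Ndufaf8, Ndufa7 and Atp5mf on day 21. Atp5f1c, the gamma subunit that forms the rotating shaft of complex V, had a lowest, median and highest signal of 3426, 4022 and 4958 in 5T-aged rats and of 4085, 4517 and 4768 in NT-A. Of 20 trained animals 16 lay below the untrained mean, and the log2 difference was -0.13 ± 0.05 (SE; adjusted p of limma 0.39). Ndufaf8, an assembly factor of complex I, had 297, 447 and 520 in 5T-aged rats and 336, 435 and 616 in 21PT-aged rats, against 361, 536 and 614 in NT-A. Its log2 difference was -0.22 ± 0.09 on day 5 and -0.22 ± 0.09 on day 21 (SE; adjusted p of limma 0.42 and 0.82). The trained groups overlapped NT-A at both times. Atp5mf differed by -0.09 ± 0.04 on day 5 and -0.09 ± 0.04 on day 21 (SE), and Ndufa7, an accessory subunit of complex I, by -0.12 ± 0.05 on day 21 (SE). Over the alternative fits given below, the day 5 values ran from -0.13 to -0.09 for Atp5f1c, -0.24 to -0.15 for Ndufaf8 and -0.11 to -0.05 for Atp5mf. The day 21 values ran from -0.22 to -0.15 for Ndufaf8, -0.13 to -0.07 for Ndufa7 and -0.09 to -0.05 for Atp5mf. The gene above 0 on day 21 was Atp5f1b, at 0.09 ± 0.05 (SE; adjusted p of limma 0.89).

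**Figure D4:**
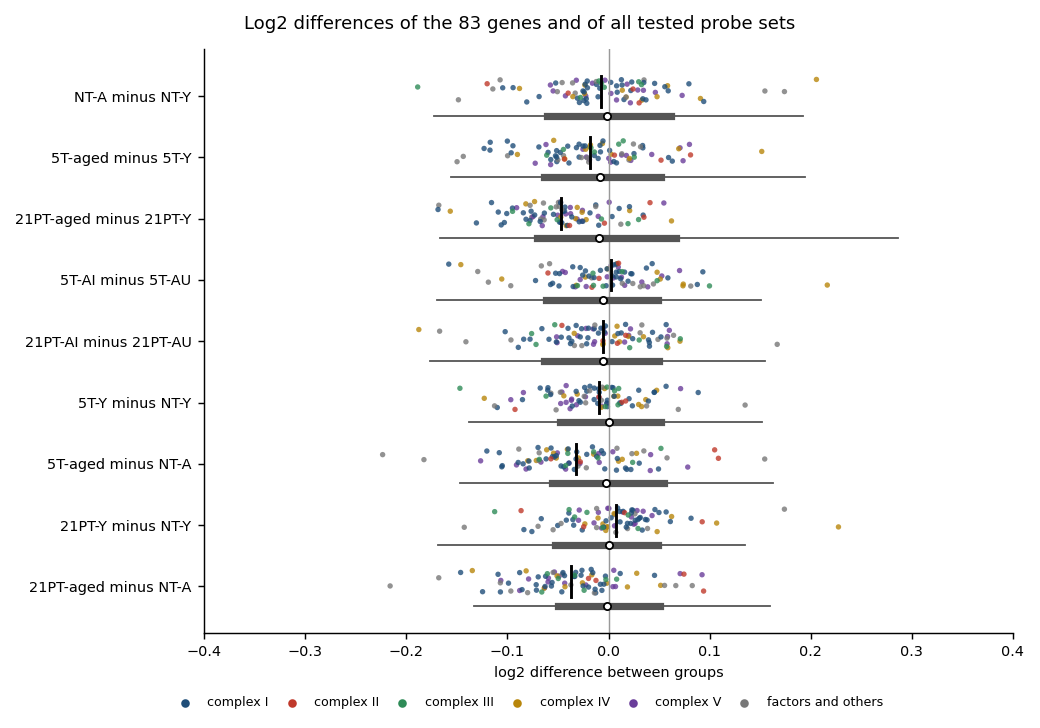
Log2 differences (x axis) of the 83 genes, 1 point each coloured by complex, in the 9 comparisons (rows), with their median as a vertical black line. The grey bars under the points give the 25th to 75th percentile (thick), the 5th to 95th percentile (thin) and the median (open circle) of all tested probe sets, and the points stay mostly inside the thin bars.

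The 12 assembly factors, regulators and others were not called in any comparison either. Among them the aged minus young log2 differences ran from -0.15 (Sdhaf2, which attaches the flavin to Sdha) to 0.17 (Cox6c-ps1) in untrained rats and from -0.17 (Cox6c-ps1) to 0.01 (Ndufaf7) on day 21. Atp5if1, which blocks reversal of ATP synthase, was at -0.03, -0.04 and -0.08 in untrained rats, on day 5 and on day 21, and Cox7a2l at 0.04, 0.02 and -0.05. A further 11 secondary comparisons (single AI and AU groups against young or untrained rats, and day 21 against day 5 within a class) also gave 0 called genes among the 83 in limma. Beside that, limma called 142 of 10371 probe sets in 5T-AU against 5T-Y (1.37%), 210 in 5T-AI against 5T-Y (2.02%), 155 in 21PT-AU against 21PT-Y (1.49%) and 182 in 21PT-AI against 21PT-Y (1.75%). Against NT-A it called 3 in 5T-AU (0.0289%), 9 in 5T-AI (0.0868%), 0 in 21PT-AU (0%) and 0 in 21PT-AI (0%). Between day 21 and day 5 it called 10 in Y (0.0964%), 0 in AU (0%) and 1 in AI (0.00964%). An unadjusted p under 0.05 was reached by 1 of the 83 in 5T-AU against 5T-Y (9.54% of all probe sets), 4 in 5T-AI against 5T-Y (12%), 4 in 21PT-AU against 21PT-Y (15.9%) and 4 in 21PT-AI against 21PT-Y (12.1%). Against NT-A there were 5 in 5T-AU (5.57%), 8 in 5T-AI (10.4%), 4 in 21PT-AU (5.05%) and 3 in 21PT-AI (5.63%). Between day 21 and day 5 there were 0 in Y (7.37%), 1 in AU (4.72%) and 3 in AI (4.89%).

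Other genes of mitochondrial respiration were read from lists of related function. Of 12 measured electron carrier genes, 24 assembly factors outside the name rule, 4 transcriptional regulators, 11 citric acid cycle genes, 6 adenine nucleotide, phosphate and outer membrane carriers and 71 mitochondrial ribosome genes, limma called 0 in the 9 comparisons. At an unadjusted p under 0.05 there were at most 6 in a comparison for the mitochondrial ribosome and at most 3 for any other list. Of all tested probe sets, between 2.44% and 16.7% had such a p in these comparisons, and limma called between 0% and 2.84%. On day 21 the aged minus young median log2 difference was -0.01 for electron carriers, -0.00 for assembly factors, -0.03 for regulators, -0.02 for the citric acid cycle, 0.02 for the carriers and -0.04 for the mitochondrial ribosome. Unadjusted p values under 0.05 in that comparison numbered 1, 1, 0, 2, 0 and 6, each below 0, against 16.7% of all tested probe sets. In 1 secondary comparison, 21PT-AI against 21PT-Y, Mrps24, a protein of the small mitochondrial ribosome subunit, was called at -0.21 ± 0.06 (SE; adjusted p of limma 0.046).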

How the data were processed

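Signal intensity per probe set was deposited by the authors on a linear scale, and the submitters' processing notes name MAS5 and GCOS 1.1. The authors' scaling put the trimmed mean of each array near 500.1, so values were used as deposited. Precision depends on how many arrays there are and on the spread of each probe set. Log2 of signal plus 1 was fitted as 8 group means over 78 arrays with limma 3.58.1 in R 4.3.3 (lmFit, eBayes with an intensity trend). Adjustment ran over 10371 probe sets kept by the filter (40th percentile, at least 9 arrays), and 57 control probe sets were left out. Values after ± in comparisons are standard errors of the fit.

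Of 15923 probe sets, 12783 had 1 platform symbol, 312 several and 2771 none, and those with several or none are not named. Named genes are the 3 with the smallest p per comparison where none was called, all of complex II, the factors, the 2 with the smallest p per complex in the F test, and a few more with an unadjusted p under 0.05 or a wide range, chosen after their values were seen. The members and lists were chosen with earlier results of these data known. Alternatives were quantile normalization, a pseudocount of 32, no filter, the mean over probe sets, only the arrays of the contrast, replicate, scan day or chip lot as a block, fluidics module, Gapdh or actin ratio as a term, and 2 arrays left out. A fit without intensity trend was chosen after seeing the data. Promoter windows came from RefSeq. The fit was tested on simulated data with independent normal noise, which hold no effect shared within an array, a fluidics module or a scan day. Tables and figures used Python 3.11.15, numpy 2.4.6, pandas 2.3.3 and matplotlib 3.10.9.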

Additional observations from a re-analysis of the deposited data

Results flagged for a closer look

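Some groups held 1 array far from its neighbours. Of 136 groups of values tested for this 7 stood out, and chance gives about 1 in 20. In 5T-AI, replicate 4 was lowest for Ndufa9 (log2 signal 10.53, next 10.78), Sdha (10.88, next 11.25) and Uqcr11 (11.67, next 11.98). In 21PT-AI, replicate 8 was highest for Cox8a (13.20, next 12.97) and lowest for Sdhc (10.83, next 11.11). In 21PT-Y, replicate 6 was highest for Uqcr11, a small subunit of complex III (12.34, next 12.14). In NT-A, replicate 2 had the highest complex I level (0.166, next 0.0555).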

How the results depend on the processing

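Of the counts of called genes, 147 recomputed under 14 alternatives stayed as reported and 6 moved from 0. For 21PT-aged against 21PT-Y the count was 1, Ndufb5, with scan day or chip lot as a block, and without 5T-AI replicate 4. For the F test over the 8 groups it was 2 with scan day as a block, Atp5f1b (adjusted p of limma 0.019) and Cox8a (0.041), and 1 with chip lot as a block, Atp5f1b (0.019). The cause was not tested. Over the alternatives Ndufb5 lay between -0.17 and -0.11 on the log2 scale, and its adjusted p of limma between 0.028 and 0.53. One named value reversed: Cox7a2l, impairment on day 21 minus day 5, was -0.00037 with the fluidics module as a term. Of 36 named differences 14 moved by over 1.5 times when the fluidics module entered the fit, 6 when the actin ratio did, and 0 under each of the other 12 alternatives. The medians over the 83 genes moved more often. Of 12 medians, 11 moved by over 1.5 times with the module, 10 with the actin ratio and 7 with the Gapdh ratio. With quantile normalization 4 moved, without 5T-AI replicate 4 also 4, and at most 2 under any other alternative. Cox5a in 21PT-AI against 21PT-AU lay between -0.22 and -0.01, and its impairment difference on day 21 minus day 5 between -0.43 and -0.18. With the module in the fit the median over the 83 genes was -0.06 in NT-A against NT-Y and in 5T-Y against NT-Y, lower than the -0.03 in 21PT-aged against 21PT-Y. The day 21 median over the 83 genes ran from -0.05 to -0.02, while the untrained to day 21 change of the age difference ran from -0.05 to 0.03. The main fit did not pair samples by replicate number, and whether the numbers mark a shared block was not tested. After group means were removed, same-numbered arrays of different groups correlated at a median of 0.15 (lowest -0.25). Arrays with other numbers correlated at a median of -0.02 (lowest -0.45), and arrays of the same scan day at 0.18. Of 78 arrays 29 correlated best with their own number, a hint from the data only. With the replicate block 1 gene, Ndufb5, was called on day 21 (-0.17, adjusted p of limma 0.028), and no other count of called genes changed.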

Other observations

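The 7 probe sets whose several symbols include one of the prefixes were not named or counted among the 83 genes. In 21PT-aged against 21PT-Y their log2 differences ran from -0.10 to -0.01 with a median of -0.05, and 7 of 7 were below 0. In 5T-aged against 5T-Y they ran from -0.10 to -0.02 with 7 of 7 below 0, and in NT-A against NT-Y from -0.12 to 0.03 with 4 of 7 below 0. Limma called 0 of the 7 in these comparisons, against 2.84%, 2.5% and 0.781% of all tested probe sets in the same order. An unadjusted p under 0.05 was reached by 0 of the 7, against 16.7%, 12.2% and 8.73%.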
